A study of Mus musculus with 16 samples.

Results

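The 8 chemoattractant receptor genes Ccr1, Ccr2, Ccr7, Ccrl2, Cx3cr1, Cxcr4, Fpr1 and Fpr2 were followed through 24 h of lipopolysaccharide (LPS) in macrophages lacking miR-155 and in wild-type macrophages. They were found by the gene name that the scanner output gives each probe, which matched 13 probes for the 8 genes. Of these, 9 probes for 6 genes were well above background on both arrays of at least 1 group and entered the tests, among 17659 genes tested in all. The probes of Ccr1 and Cx3cr1 did not meet that filter, and their values are given without a test of the main kind.

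Bone marrow of male C57BL/6Jax mice was kept for 9 days with M-CSF (10 ng/mL), which drives precursors to become macrophages, and the adherent cells were then lysed at once or given LPS at 100 ng/mL. The miR-155 KO cells were lysed unstimulated (0 h) or after 6, 12 or 24 h of LPS, as were the WT cells, with 2 single-colour Agilent arrays in each of the 8 groups. The labels describe the knockout only as miR-155 KO, give no age, and do not say whether arrays of a group came from separate mice or cultures, so p-values measure the spread between these arrays, which may be technical. The array carries no probe for the gene of miR-155, and the loss of the microRNA could not be checked here.

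Chemoattractant receptors are 7-helix membrane proteins that couple to inhibitory G proteins and steer leukocytes along gradients of their ligands. Fpr1 and Fpr2 bind N-formyl peptides from bacteria and mitochondria. Ccr1, Ccr2, Ccr7, Cxcr4 and Cx3cr1 bind chemokines, and Ccrl2 is an atypical receptor that presents chemerin without signalling itself. In mouse monocytes and macrophages, Ccr2 marks the inflammatory subset, Cx3cr1 the patrolling subset and many resident cells, and Ccr7 guides maturing dendritic cells to lymph nodes.

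The sequences that frame the comparison are the microRNA deleted in the KO mice and the stretches upstream of 3 receptor genes that rose together after LPS. In the mature microRNA, from chr16:84714143-84714165 on the plus strand (RefSeq, GRCm38.p6), capitals mark the seed, bases 2 to 8, which pairs with target messages.
miR-155-5p: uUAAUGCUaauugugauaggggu
The upstream stretches are the last 100 bases before the annotated start site, read along the strand of each gene (RefSeq, GRCm38.p6). They lie at chr17:17883940-17884039 on the minus strand for Fpr1, chr17:17887724-17887823 on the plus strand for Fpr2 and chr9:111057519-111057618 on the minus strand for the most upstream of the start sites listed for Ccrl2. Capitals mark matches to AAANNGAAA, the core of interferon response elements, or to the NF-kB consensus, both searched on both strands.
Fpr1: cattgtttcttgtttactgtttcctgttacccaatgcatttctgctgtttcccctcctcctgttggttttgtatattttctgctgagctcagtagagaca
Fpr2: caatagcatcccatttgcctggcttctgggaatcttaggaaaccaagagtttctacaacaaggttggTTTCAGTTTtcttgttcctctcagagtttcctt
Ccrl2: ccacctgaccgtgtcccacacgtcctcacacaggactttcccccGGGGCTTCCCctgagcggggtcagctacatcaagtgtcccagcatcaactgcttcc
The window searched ran from 250 bases before to 50 bases after each start site and was listed for 7 of the 8 genes, Ccr7 having none. These 7 genes had 9 windows in all, Ccrl2 alone having more than 1. The window of Ccr1 and that of the most upstream Ccrl2 start site held the NF-kB consensus, which stood in 8.459% of all 32851 windows. Fpr2 and Ccr1 held AAANNGAAA, which stood in 10.55%. The windows of the other Ccrl2 start sites held no match to either motif. The windows of Fpr1, Cxcr4, Ccr2 and Cx3cr1 held neither. A match is a description of letters and no evidence of binding. Fpr1 (chr17:17876471-17883939, minus strand) and Fpr2 (chr17:17887824-17893952, plus strand) are neighbours that point away from each other, with 3885 bases between their start sites. Ccr1, Ccr2, Ccrl2 and Cx3cr1 lie on chromosome 9, Ccr7 on chromosome 11 and Cxcr4 on chromosome 1.

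All levels are log2 signals relative to the 75th percentile of the same array, so a level of 0 equals that percentile and each unit is a factor of 2. Between 56.0% and 67.6% of the spots of an array were well above background and no spot was saturated. Precision is limited by having 2 arrays in a group. Arrays of replicate 1 were scanned in one session and arrays of replicate 2 in another, so each session holds 1 array of every group. All 10 macrophage markers, among them Adgre1 and Csf1r, were well above background on every array. Markers listed for other blood cells were detected too: per array, 8 to 12 of the 12 tested neutrophil markers, 7 to 9 of 9 monocyte, 5 to 8 of 8 dendritic cell, 3 to 4 of 4 B cell, 2 to 4 of 4 T and NK cell, and 1 to 3 of 3 eosinophil, basophil and mast cell markers were well above background. Among the markers of these lists that did not pass the filter, Elane, Cd209a, Ncr1, Gzma, Ebf1, Epx, Cpa3, Mcpt8 and Ms4a2 were above background on no array. Others that failed it were above background on some arrays, counted on the probe detected most often. These were Cd79a on 8 arrays, Cd8a on 6, Cd177 on 5, Cd3d and Cd2 on 3 each, Pax5 on 2, and Dpp4 and Siglech on 1 each.

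After LPS the formyl peptide receptors, Ccrl2 and Ccr7 were higher than at 0 h and Cxcr4 was lower, in both genotypes. At 6 h, 4 of the 6 tested receptors had risen and 1 had fallen in KO cells, against a background of 26% of all genes called (12.3% higher, 13.8% lower). The same count stood in WT cells at 6 h, with 25.4% of all genes called (12.6% higher, 12.8% lower). At 12 h the counts were again 4 higher and 1 lower in each genotype, with 19.4% of all genes called in KO (9.49% higher, 9.93% lower) and 19.3% in WT (9.68% higher, 9.67% lower). Ccr7, 1 of the 4 higher at 6 and 12 h, was not well above background on any resting array. It passed the filter only through groups after LPS, so the filter favoured its rise wherever it is counted. At 24 h, 2 receptors were called in KO, both higher, with 9.9% of all genes called (4.97% higher, 4.94% lower). In WT 3 were called, all higher, with 11% of all genes called (5.61% higher, 5.42% lower). Calls rest on limma's moderated test with a Benjamini-Hochberg adjusted p under 0.05 over all genes. With the scan session as a term, 5 receptors were called at 24 h in KO and 5 in WT, against 24.1% and 27.4% of all genes. Under normexp background correction only Fpr1 and Fpr2 stayed called after LPS, a setting distorted on 3 arrays by a few spots of extreme local background. Arrays at a time did not overlap those at 0 h for 55.5%, 54.4% and 44.7% of all genes at 6, 12 and 24 h in KO, and for 61.2%, 54.6% and 52% in WT. Over the 6 receptors the median change at 6 h was 4.57 in KO and 4.69 in WT, beside medians over all genes of 0.01 and 0.06, and with Ccr7 at its bound it was 4.20 in KO and 4.27 in WT. Fewer cells carrying a transcript and less transcript per cell cannot be told apart in these bulk RNA samples.

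**Figure D1:**
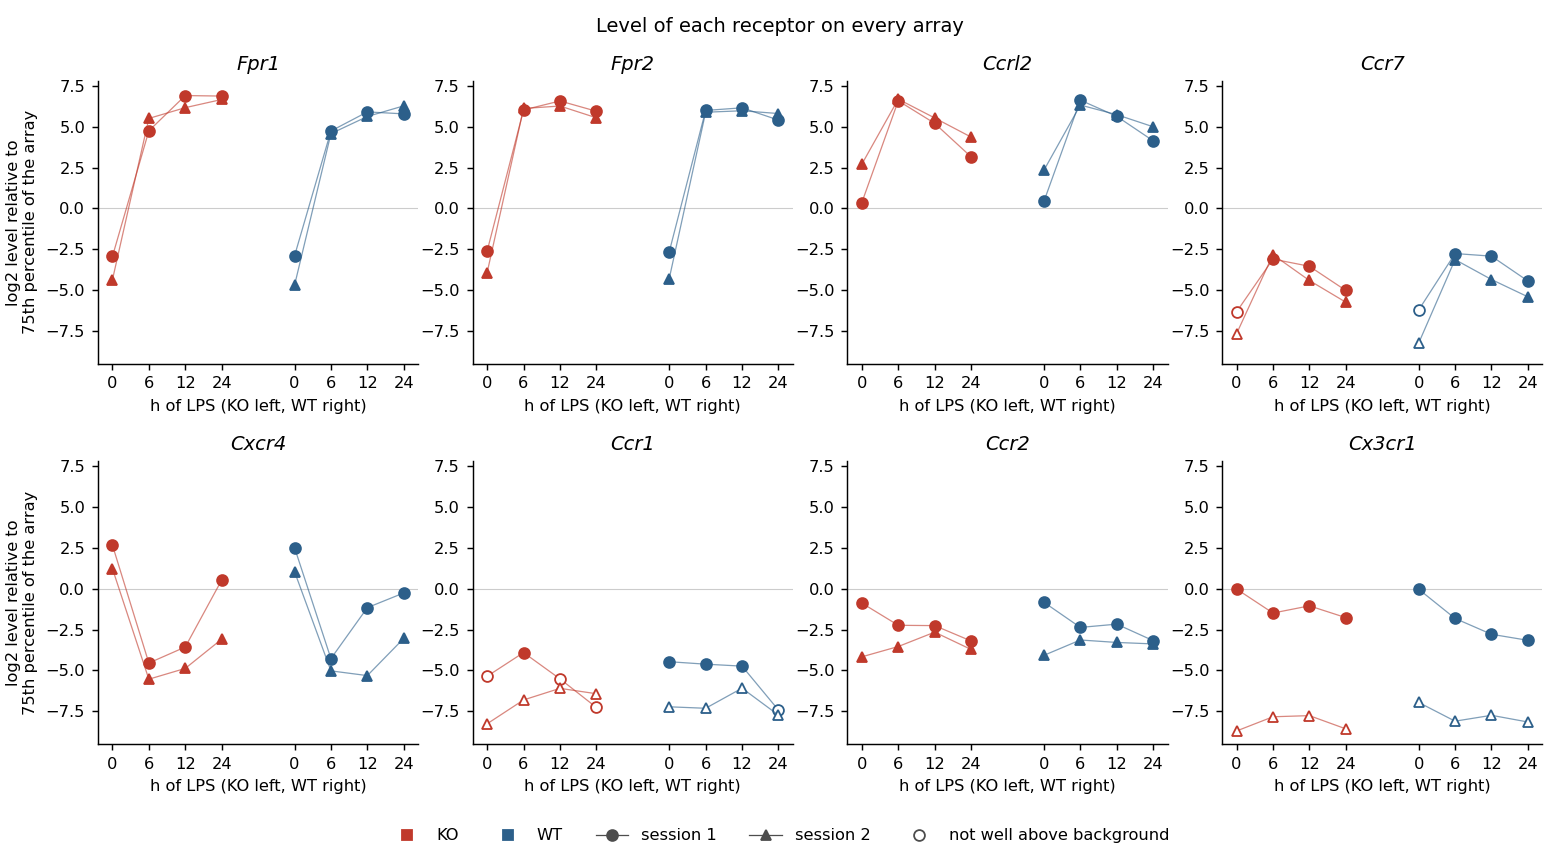
Log2 level of each receptor relative to the array's 75th percentile (vertical axis) on all 16 arrays, with KO to the left of WT in each panel and hours of LPS as evenly spaced steps. Circles are scan session 1, triangles session 2 and open symbols are arrays on which the probe was not well above background. Fpr1 and Fpr2 lie above 4.5 on every array after LPS, Cxcr4 dips at 6 h, and Cx3cr1 separates by session.

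Fpr1, the high-affinity receptor for bacterial formyl peptides, was near the bottom of its range in resting cells. In KO cells its level was -2.94 and -4.37 at 0 h, 4.75 and 5.51 at 6 h, 6.91 and 6.17 at 12 h, and 6.88 and 6.67 at 24 h. In WT cells it was -2.91 and -4.71 at 0 h, 4.74 and 4.58 at 6 h, 5.91 and 5.63 at 12 h, and 5.79 and 6.28 at 24 h. Every array after LPS was above every resting array. In KO cells the log2 changes from 0 h were 8.78 at 6 h, 10.20 at 12 h and 10.43 at 24 h (SE 0.61, limma adjusted p at most 1.93e-05), a 440-fold rise at 6 h. In WT cells the changes were 8.47, 9.59 and 9.85 with the same SE (limma adjusted p at most 2.08e-05), a 355-fold rise at 6 h. The order of the group means was 0 h, 6 h, 12 h, 24 h in both genotypes, but 24 h differed from 12 h by only 0.23 in KO and 0.26 in WT. The difference between 24 and 6 h was 1.64 in KO (limma adjusted p 0.107, and 0.0451 with the session as a term) and 1.38 in WT (adjusted p 0.19, and 0.0859 with the session).

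Fpr2, the partner receptor that also binds serum amyloid A and annexin A1, reached its plateau by 6 h. In KO cells its level was -2.61 and -3.93 at 0 h, 6.03 and 6.12 at 6 h, 6.58 and 6.27 at 12 h, and 5.95 and 5.55 at 24 h. In WT cells it was -2.66 and -4.30 at 0 h, 6.00 and 5.89 at 6 h, 6.16 and 5.98 at 12 h, and 5.41 and 5.81 at 24 h. As with Fpr1, no array after LPS overlapped a resting array. The log2 changes in KO were 9.34, 9.69 and 9.02 at 6, 12 and 24 h (SE 0.52, limma adjusted p at most 1.93e-05), and in WT they were 9.43, 9.55 and 9.09 (limma adjusted p at most 2.08e-05). The means at 6, 12 and 24 h did not differ past the threshold in either genotype. A second Fpr2 probe moved in parallel (Pearson r 0.997 over the 16 arrays) and was not well above background on either resting KO array. The signal of that probe was at least 931-fold higher at 6 h, 1094-fold at 12 h and 634-fold at 24 h in KO cells. The floor was the lowest detected signal of each resting array, or the probe's own signal where that was higher. The brighter probe, well above background on all 16 arrays, gave smaller rises in KO of 650-fold, 828-fold and 519-fold. The bounds therefore hold for the signal of the second probe and not for the gene.

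**Figure D2:**
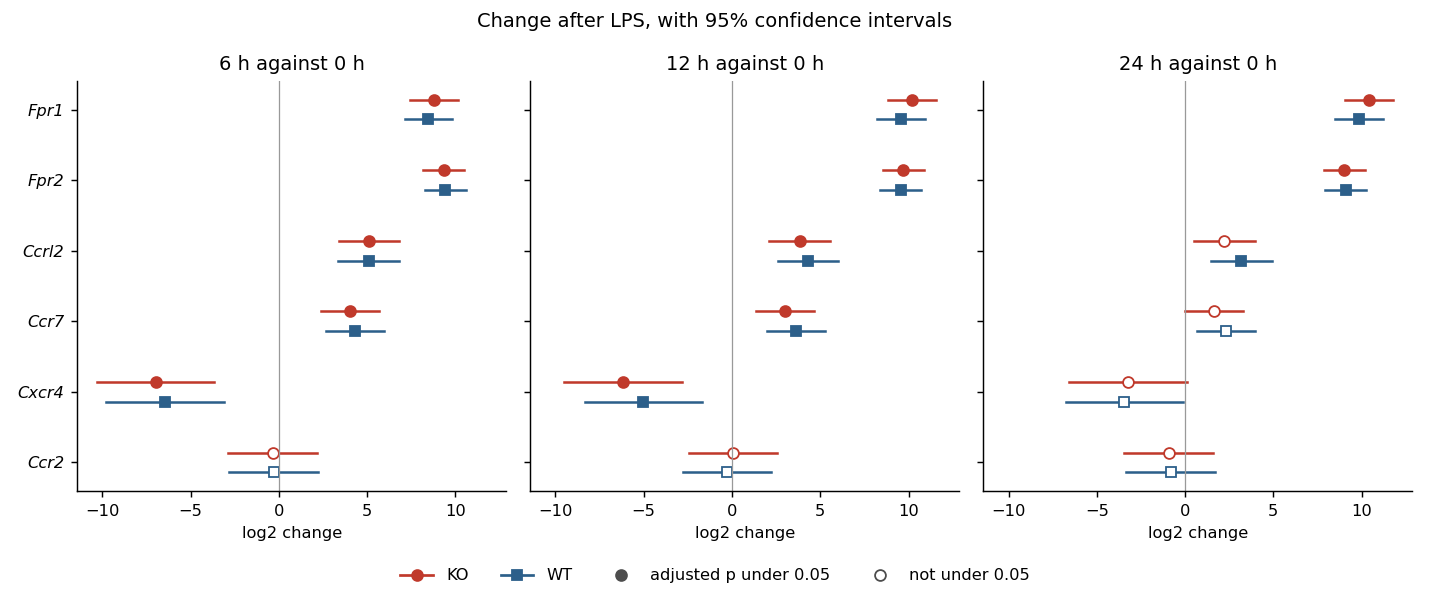
Log2 change of the 6 tested receptors at 6, 12 and 24 h of LPS against 0 h (horizontal axis), with 95% confidence intervals from limma, KO circles drawn above WT squares. Filled symbols have an adjusted p under 0.05. The KO and WT intervals of each receptor overlap at every time.

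Ccrl2 was already expressed at rest, rose to a peak at 6 h and then declined. Ccrl2 in KO cells stood at 0.36 and 2.71 at 0 h, 6.59 and 6.69 at 6 h, 5.21 and 5.54 at 12 h, and 3.16 and 4.37 at 24 h. WT cells had 0.43 and 2.34 at 0 h, 6.63 and 6.33 at 6 h, 5.64 and 5.74 at 12 h, and 4.14 and 5.0 at 24 h. On the brighter probe the arrays of the groups after LPS did not overlap those at 0 h, although the resting level was higher in session 2 in both genotypes. The changes from 0 h in KO were 5.10 at 6 h (limma adjusted p 0.000923), 3.84 at 12 h (0.00644) and 2.23 at 24 h (0.111, and 0.0219 with the session as a term), each with SE 0.78. In WT they were 5.09 at 6 h (limma adjusted p 0.000972), 4.30 at 12 h (0.00356) and 3.19 at 24 h (0.0253). Without either WT 24 h array, or without the WT 0 h array of replicate 1, the 24 h call in WT was lost (changes of 2.23 to 3.62, limma adjusted p 0.0544 to 0.190). The 24 h change differed between the genotypes by -0.96 (KO minus WT, SE 1.1, 95% interval -3.40 to 1.48, limma adjusted p 1), so being called in WT alone is not a difference between them. The change from 6 to 24 h was -2.87 in KO (limma adjusted p 0.0367) and -1.91 in WT (0.157, and 0.0357 with the session as a term). The KO call for that step was lost in 10 of the 16 fits that left out 1 array (limma adjusted p 0.0511 to 0.209, changes of -3.48 to -2.27), with quantile normalization (0.0679), with scaling to the median (0.152) and with no filter (0.0597). The second Ccrl2 probe followed the first (r 0.989), with changes at 6 h of 4.71 in KO and 5.06 in WT. On that probe the KO arrays at 24 h (2.95 and 4.78) overlapped those at 0 h (0.19 and 2.96), and the 24 h change in WT had a limma adjusted p of 0.0516.

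Ccr7, the receptor for the lymph node chemokines Ccl19 and Ccl21, was not well above background on any of the 4 resting arrays and was detected on all 12 arrays after LPS. Ccr7 in KO cells stood at -6.33 and -7.67 at 0 h, -3.10 and -2.83 at 6 h, -3.54 and -4.41 at 12 h, and -5.02 and -5.74 at 24 h. WT cells had -6.22 and -8.25 at 0 h, -2.76 and -3.13 at 6 h, -2.92 and -4.35 at 12 h, and -4.44 and -5.41 at 24 h. The groups after LPS did not overlap the resting ones. In KO, Ccr7 was at least 9.79-fold higher at 6 h (limma adjusted p 0.00264) and 4.85-fold higher at 12 h (0.0164). In WT it was at least 10.9-fold higher at 6 h (limma adjusted p 0.00193) and 6.74-fold higher at 12 h (0.00687). Each of these p-values against 0 h tests the measured log2 change, not the bound. That change was 4.03 at 6 h and 3.02 at 12 h in KO, and 4.29 and 3.60 in WT. It rests on resting values that were not well above background. At 24 h the bounds were 1.84-fold in KO (limma adjusted p 0.232, and 0.026 with the session as a term) and 2.75-fold in WT (0.076, and 0.00449 with the session). The change from 6 to 24 h was -2.41 in KO (limma adjusted p 0.0572, and 0.0032 with the session as a term) and -1.98 in WT (0.123, and 0.00923 with the session). The 12 h calls were lost without the replicate 2 array at 0 h or without the replicate 1 array at 12 h, with limma adjusted p of 0.128 and 0.0974 in KO, and 0.0644 and 0.0544 in WT. With normexp on a capped local background, a setting chosen after seeing the data, the 12 h calls were lost too (limma adjusted p 0.261 in KO and 0.0796 in WT). Under that setting the log2 changes were 0.72 in KO and 1.07 in WT. These lie below the main scaling's bounds, which are 2.28 and 2.75 in log2. Among the dendritic cell markers, 4 of 8 tested rose at 6 h in each genotype (Ccl22, Ccl17, Fscn1 and Zbtb46), beside 12.3% of all genes called higher in KO and 12.6% in WT. The summed level of the tested dendritic cell markers, in multiples of the array's 75th percentile, was 9.57 to 18.9 in KO and 11.6 to 16.5 in WT at 6 h, against 1.47 to 1.99 in KO and 1.45 to 2.36 in WT at 0 h. The largest term of that sum was Fscn1, an actin-bundling protein of mature dendritic cells, on every 6 h array, and Batf3 on every 0 h array. Fscn1 was 2.36 and 3.94 at 6 h in KO, against -4.78 and -4.02 at 0 h. Batf3, a dendritic cell transcription factor, was -0.10 and 0.16 at 6 h in KO, against 0.41 and 0.28 at 0 h. Without the session as a term, Batf3, Flt3, Xcr1 and Itgae were not called at 6 h in either genotype. Cd209a was above background on no array and Siglech on 1, and the part of those markers in the Ccr7 result was not tested.

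Cxcr4, the receptor for Cxcl12 that holds leukocytes in bone marrow, fell steeply at 6 h, and its group means were higher again at 24 h. Cxcr4 in KO cells stood at 2.67 and 1.23 at 0 h, -4.55 and -5.54 at 6 h, -3.57 and -4.88 at 12 h, and 0.53 and -3.09 at 24 h. WT cells had 2.52 and 1.05 at 0 h, -4.28 and -5.03 at 6 h, -1.16 and -5.32 at 12 h, and -0.26 and -3.04 at 24 h. All arrays after LPS were below all resting arrays, and those of session 1 were above those of session 2 in every group. The fall at 6 h was -6.99 in KO (SE 1.5, limma adjusted p 0.00649) and -6.44 in WT (0.0101), or 127-fold and 86.9-fold lower than at rest. At 12 h the change was -6.17 in KO (limma adjusted p 0.0161) and -5.02 in WT (0.0403). At 24 h it was -3.23 in KO (limma adjusted p 0.243, and 0.0152 with the session as a term) and -3.43 in WT (0.195, and 0.0108 with the session). From 6 to 24 h the change was 3.76 in KO (limma adjusted p 0.135, and 0.0058 with the session) and 3.01 in WT (0.247, and 0.0179 with the session). The WT 12 h call was lost in 11 of the 16 fits that left out 1 array (limma adjusted p 0.05004 to 0.307), and without the WT 12 h array of replicate 2 the change was -2.94. The WT 6 h call was lost without the WT 0 h array of replicate 1 (adjusted p 0.0672) or the WT 6 h array of replicate 2 (0.0631), and the KO 12 h call without the KO 0 h array of replicate 1 (0.0855) or the KO 12 h array of replicate 2 (0.111). The second Cxcr4 probe moved with the first (r 0.987), was not well above background on either KO array at 6 h, and gave a bound there of at least 95.3-fold lower.

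**Figure D3:**
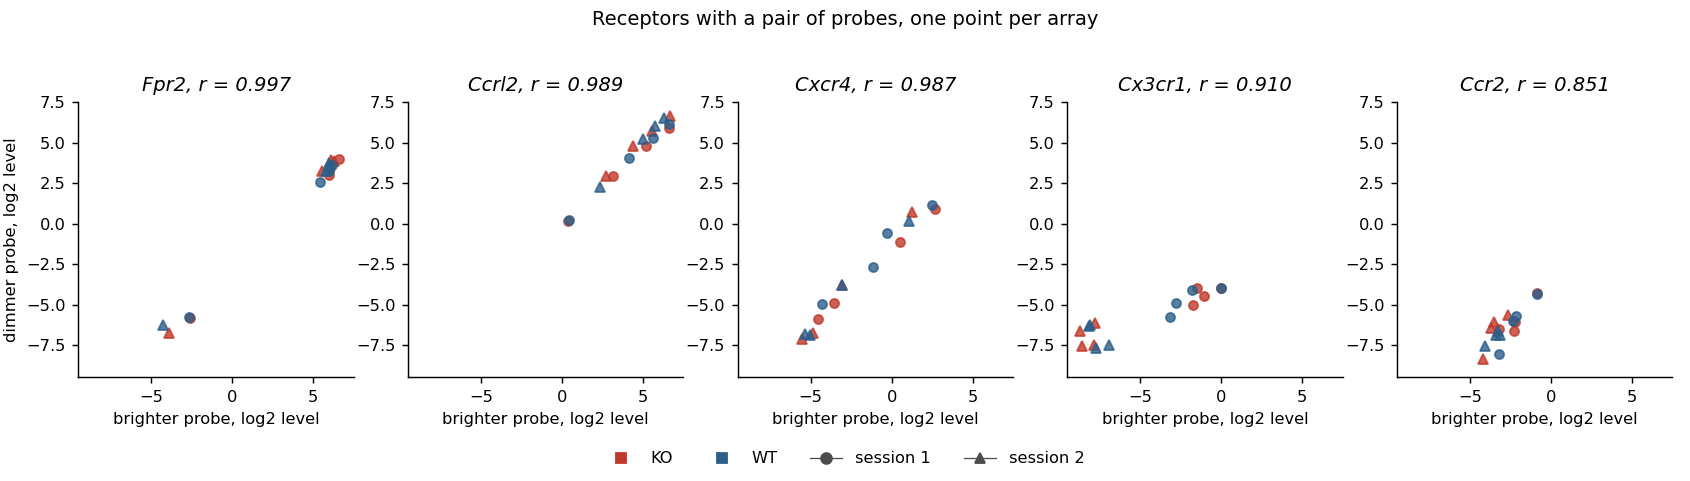
Log2 level of the dimmer probe (vertical axis) against the brighter probe (horizontal axis) for the 5 receptors with a pair of probes, 1 point per array, KO red and WT blue, circles session 1 and triangles session 2. Pearson r over the 16 arrays runs from 0.851 for Ccr2 to 0.997 for Fpr2.

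Ccr2, the receptor for the monocyte chemokines Ccl2 and Ccl7, was detected on all 16 arrays but was called in no comparison, and its direction after LPS differed between sessions. In KO cells its level was -0.88 and -4.17 at 0 h, -2.24 and -3.54 at 6 h, -2.26 and -2.66 at 12 h, and -3.20 and -3.72 at 24 h. In WT cells it was -0.83 and -4.08 at 0 h, -2.37 and -3.14 at 6 h, -2.17 and -3.29 at 12 h, and -3.18 and -3.38 at 24 h. The resting arrays of session 1 were the highest of all 16 and those of session 2 the lowest. Within session 1 the change from 0 h was -1.35, -1.37 and -2.32 at 6, 12 and 24 h in KO, and -1.54, -1.34 and -2.35 in WT. Within session 2 it was 0.63, 1.51 and 0.45 in KO, and 0.94, 0.79 and 0.70 in WT. Pooled, the 24 h change was -0.93 in KO (95% interval -3.44 to 1.57, limma adjusted p 0.745) and -0.82 in WT (-3.33 to 1.68, adjusted p 0.746), and a term for the session leaves these estimates as they are. The second Ccr2 probe was above background on 3 arrays, all of session 1.

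Cx3cr1, the fractalkine receptor, was split by scan session and was detected in session 1 alone. There Cx3cr1 read lower on both probes, on every array after LPS, than on the resting array of the same genotype. Each group has 1 array in that session, so this fall has no replicate. In session 1 its brighter probe read -0.02, -1.49, -1.05 and -1.77 at 0, 6, 12 and 24 h in KO and -0.03, -1.82, -2.79 and -3.16 in WT, all well above background. In session 2 it read -8.71, -7.84, -7.77 and -8.58 in KO and -6.96, -8.11, -7.75 and -8.16 in WT, none well above background. It was 1 of 2 probes, of 41077, whose lowest session 1 value lay at least 3 units above its highest session 2 value. The dimmer Cx3cr1 probe was above background on 7 session 1 arrays and no session 2 array, and was higher in session 1 in all 8 groups. The summed level of the 12 tested neutrophil markers, in multiples of the array's 75th percentile, was 25.4 to 55.0 in session 1 and 4.13 to 23.2 in session 2. At 0 h it was 34.9 in KO and 53.2 in WT in session 1, against 5.15 and 4.13 in session 2. At 24 h the sums were nearer, 27.4 and 25.4 against 23.2 and 20.8. Lcn2, which rose after LPS, was the largest term of the neutrophil sum on every 24 h array. Its log2 levels at 24 h in session 2 were 4.12 in KO and 3.87 in WT. Lcn2 and Csf3r were higher in session 2 at 24 h in both genotypes. S100a9 was still lower there, at -2.34 in KO and -2.86 in WT, against 1.64 and 2.58 in session 1. The macrophage sum, in multiples of the 75th percentile, had medians of 2440 in session 1 and 1434 in session 2, and the monocyte sum had medians of 8.88 and 8.81. The part of cell content, RNA or hybridization in the Ccr2 and Cx3cr1 values was not tested.

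Ccr1, a receptor for Ccl3, Ccl5 and related inflammatory chemokines, stayed close to background. In KO cells its probe read -5.36 and -8.27 at 0 h, -3.91 and -6.81 at 6 h, -5.52 and -6.10 at 12 h, and -7.27 and -6.43 at 24 h. In WT cells it read -4.47 and -7.23 at 0 h, -4.62 and -7.32 at 6 h, -4.74 and -6.09 at 12 h, and -7.43 and -7.74 at 24 h. The probe was well above background on 4 arrays, all of session 1: KO at 6 h and WT at 0, 6 and 12 h. With the filter on dim probes removed, neither Ccr1 nor Cx3cr1 was called in any comparison, the smallest limma adjusted p being 0.533 for Ccr1 after LPS and 0.834 for Cx3cr1.

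None of the 6 tested receptors differed between KO and WT past the threshold. Of the 6, 0 were called at 0, 6, 12 or 24 h or averaged over the times, and 0 had an unadjusted limma p under 0.05, where 0%, 0%, 0.0113%, 0% and 0.017% of all genes were called (at 12 h 0.00566% higher and 0.00566% lower, over the times 0.0113% higher and 0.00566% lower). The largest difference in favour of KO was that of Fpr1, with KO minus WT of 0.16 at 0 h, 0.47 at 6 h, 0.77 at 12 h and 0.74 at 24 h. At 6, 12 and 24 h the KO arrays for Fpr1 lay above the WT arrays, with a gap at 6 h far smaller than the spread within KO. KO arrays lay above WT arrays for 4.62%, 9.04% and 10.2% of all genes at 6, 12 and 24 h and below them for 8.45%, 6.99% and 10%, so 13.1%, 16% and 20.3% did not overlap. Averaged over the times the Fpr1 difference was 0.53 (95% interval -0.14 to 1.21, limma adjusted p 1). For Fpr2 the average was 0.21 (-0.37 to 0.79), and KO arrays lay above WT arrays at 6 and 12 h but not at 24 h. Ccrl2 at 24 h was lower in KO by 0.81 (95% interval of KO minus WT -2.54 to 0.92), and Ccr7 by 0.45 (-2.09 to 1.19), with overlapping arrays in both; at 12 h the KO arrays for Ccrl2 lay below the WT arrays (-0.31). Cxcr4 had wider intervals than the other receptors, such as -4.32 to 2.35 around -0.98 at 12 h. The intervals for Ccr2 spanned -2.69 to 2.77 over the 4 times.

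**Figure D4:**
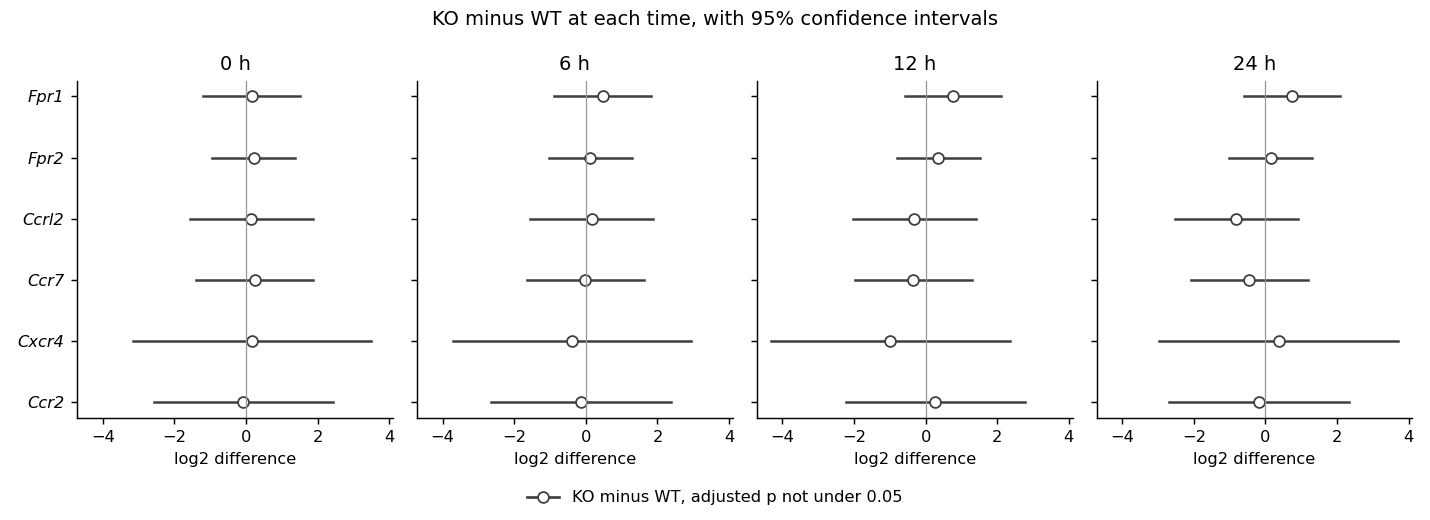
KO minus WT difference in log2 level (horizontal axis) for the 6 tested receptors at 0, 6, 12 and 24 h, with 95% confidence intervals from limma. All intervals include 0, and no difference had an adjusted p under 0.05.

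The response to LPS was then compared between the genotypes directly. The difference of the changes, KO minus WT, lay between -1.15 (Cxcr4 at 12 h) and 0.61 (Fpr1 at 12 h), with 0 of 6 called at any time or by a joint F test over the 3 times, where 0% of all genes were called. No receptor had an unadjusted limma p under 0.05 in these tests. The 95% intervals of the 6 h differences ran from -5.26 to 4.16 for Cxcr4 and from -1.74 to 1.56 for Fpr2, so differences of 2-fold in either direction lie within both.

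Between neighbouring LPS times 0 of 6 receptors were called in either genotype by limma, and 1 had an unadjusted p under 0.05 (Fpr1, 12 against 6 h in KO, 1.41, adjusted p 0.338). The share of all genes called was 1.61% for 12 against 6 h and 0.238% for 24 against 12 h in KO, and 1.68% and 0.187% in WT. By direction these were 0.997% higher and 0.617% lower, then 0.0849% higher and 0.153% lower in KO. In WT they were 1.03% higher and 0.646% lower, then 0.0566% higher and 0.13% lower. Across the 18 h from 6 to 24 h, Ccrl2 in KO was the only receptor called (1 of 6, with 12.9% of all genes called, 7.07% higher and 5.81% lower). In WT 0 of 6 were called, where 5.61% of all genes were called higher and 4.86% lower, and 3 had an unadjusted limma p under 0.05. With the scan session as a term, 4 were called in KO (32.1% of all genes) and 3 in WT (30.1%). In KO these were Fpr1 and Cxcr4, which rose, and Ccrl2 and Ccr7, which fell. In WT they were Cxcr4, which rose, and Ccrl2 and Ccr7, which fell.

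Of 33 other chemoattractant receptors listed, 30 had probes and 21 were tested, and at 6 h 4 were higher and 3 lower in each genotype, beside 12.3% and 13.8% of all genes in KO and 12.6% and 12.8% in WT, with medians of 0.52 in KO and 0.82 in WT beside 0.01 and 0.06 over all genes. With the session as a term 8 were higher and 4 lower in KO, and 7 higher and 3 lower in WT, where 21% and 22.7% of all genes were called in KO and 23.6% and 22% in WT. S1pr1, which guides cells out of tissue toward sphingosine 1-phosphate, was -2.25 and -2.89 at 6 h in KO cells, against 2.29 and 2.15 at 0 h. That was a 27.7-fold drop in KO (log2 change -4.79, SE 0.85, limma adjusted p 0.00229) and a 34.7-fold drop in WT (-5.12, adjusted p 0.00163). Gpr183, the oxysterol receptor that positions immune cells, fell by 4.41 in KO (limma adjusted p 0.00202) and by 4.23 in WT (0.00266). C5ar2, a non-signalling C5a receptor, fell by 2.65 in KO (limma adjusted p 0.000739) and by 2.35 in WT (0.00154). Cxcr5 and Ccr9, receptors best known from lymphocytes, rose by 2.74 and 3.77 in KO and by 3.31 and 4.16 in WT. The resting arrays for S1pr1, Gpr183 and C5ar2 lay above all arrays at 6 h, and those of Cxcr5 and Ccr9 below them. Cxcr3, a chemokine receptor of T cells, was called lower only at 24 h (-2.63 in KO, -2.45 in WT).

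Ligands of the 8 receptors were called higher more often than lower. All 21 listed ligands had probes and 20 were tested, and at 6 h 11 rose and 1 fell in KO, as in WT, against the same shares of all genes (12.3% higher and 13.8% lower in KO, 12.6% and 12.8% in WT), with medians of 3.94 in KO and 4.0 in WT. With the session as a term 13 ligands were higher and 1 lower in KO, and 14 higher and 1 lower in WT. In that fit 21% of all genes were higher and 22.7% lower in KO, and 23.6% and 22% in WT. Saa3, a serum amyloid A protein of mice of the family that Fpr2 binds, was 9.77 and 8.88 at 6 h in KO, against -0.28 and -3.99 at 0 h. In WT it was 9.88 and 7.74 at 6 h, against -0.29 and -4.42 at 0 h. No array after LPS overlapped a resting one, and the changes were 11.45 in KO (SE 1.43, limma adjusted p 0.000312) and 11.16 in WT (0.000362). Ccl5 rose by 9.37 in KO and 9.32 in WT, Saa1 by 8.26 and 7.99, and Ccl12, a Ccr2 ligand of mice, by 7.35 and 7.40. Cx3cl1, the only ligand of Cx3cr1, was higher at 6 h (3.78 in KO, 4.20 in WT) and lower than at rest at 24 h (-2.60 in KO, -1.91 in WT), with limma adjusted p of at most 0.00947. Hmgb1 was the ligand that fell at 6 h, by 1.36 in KO and by 1.53 in WT. Cxcl12, the ligand of Cxcr4, named after its values were seen, was -4.30 and -3.66 at 6 h in KO, against -5.25 and -4.50 at 0 h, and was called in no LPS comparison. Camp stands both in this list and among the neutrophil markers.

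All 36 listed genes that carry the receptors' signal inside the cell were tested, and at 6 h 11 rose and 2 fell in KO and 13 rose and 2 fell in WT, beside 26% of all genes called in KO and 25.4% in WT, with medians of 0.58 in KO and 0.55 in WT. With the session as a term 16 were higher and 6 lower in KO, and 16 higher and 5 lower in WT, beside 43.7% and 45.6% of all genes called. Itpr1, the calcium channel opened by inositol trisphosphate, was 2.84 and 3.74 at 6 h in KO, against -0.50 and 0.85 at 0 h, a change of 3.11 (SE 0.60, limma adjusted p 0.00359), and it rose by 3.46 in WT (0.00204). Pik3r5, the adaptor of the G protein-driven PI3-kinase, rose by 2.84 in KO and 2.70 in WT. Rgs16, which ends G protein signals, rose by 2.51 in KO and 1.96 in WT. Arrb1, a beta-arrestin that desensitizes and internalizes receptors, fell by 4.45 in KO (SE 0.69, limma adjusted p 0.00102) and by 4.52 in WT (0.000965), and the receptor kinase Grk6 fell by 1.85 and 1.80. No gene of the 3 lists was called between KO and WT at any time, with or without the session as a term.

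Genes whose level followed a receptor most closely over the 16 arrays are a description, since the arrays share times, sessions and scaling. Fpr1 followed Cfb (complement factor B, r 0.996) and Ass1 (argininosuccinate synthase, 0.990), and Fpr2 followed Acod1 (the itaconate enzyme, 0.996) and Cfb (0.995). Ccrl2 followed Zcchc2 (0.990) and Ptgs2 (cyclooxygenase 2, 0.986), and Ccr7 followed Cers6 (0.977) and Vcan (0.973). Cxcr4 was closest to Fam199x (0.976) and Cstad (0.975), and Ccr2 to Scgb3a2 (0.950) and Polr2a (0.933). These genes were picked by the correlation itself, so the values carry no test.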

How the data were processed

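Total RNA from 16 macrophage samples was read on single-colour Agilent arrays. The authors' deposited scanner output gives each spot's processed signal intensity, background-subtracted by Agilent Feature Extraction 10.5.1.1 per the file headers, and the deposited series table holds log2 values of the same signals. Here log2 intensity was averaged over a probe's spots without outlier flags, scaled to the array's 75th percentile, and kept where well above background on both arrays of at least 1 group; the brightest probe stood for a gene. Gene names came from the files, updated through RefSeq (GRCm38.p6). Tests used limma 3.58.1 (R 4.3.3) over 17659 genes and 8 group means, Benjamini-Hochberg adjusted at 0.05, and were tested on simulated data. Same-numbered arrays share a scan session per the file headers, and their deviations correlated in all 28 pairs of groups (0.40 to 0.84); values with the session as a term are given where it changed a receptor's call or a list's count at 6 h. Named genes were the 8 receptors, the 2 closest genes by correlation to each, and up to 4 called genes each way from each list, some of which are not reported here. The members and lists were chosen with earlier results of these data known. Marker lists covered macrophages, neutrophils, monocytes, dendritic cells, T and NK cells, B cells, and eosinophils, basophils and mast cells. Protein sequences were not used here.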

Additional observations from a re-analysis of the deposited data

How the results depend on the processing

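The 25 calls of the 6 receptors against 0 h (of 36) became 30 with the replicate block, pairing arrays by scan session, 29 with the slide block, and 21 to 27 under the remaining alternatives except normexp, which left 12. The 21 came from keeping only probes well above background on all arrays, where Ccr7 was not tested. No call of another receptor was lost there. On 3 arrays, where a few spots had a local background of up to 722571, the tenth percentile after normexp was 238 to 3281, against 56.7 to 78.9 on the other arrays; capping the background at its 99th percentile, an alternative chosen after seeing the data, gave 23. Leaving out 1 array gave 23 to 25. Calls between LPS times numbered 1 in the main fit, 7 with the replicate block, 7 with the slide block, 0 with normexp, 2 with the capped background, 4 with quantile normalization and 0 with no filter on dim probes, and 0 to 2 when 1 array was left out. The calls the replicate block added are given beside each receptor, and it removed none. KO against WT and the comparison of responses gave 0 calls under every alternative that kept all arrays. No receptor result called in the main fit changed direction under any alternative, leave-one-out fits included. Some results that were not called did change direction between settings, among them the change of Ccr2 at 6 h in each genotype. Quantile normalization moved the median change of all genes by up to 0.22 log2 and scaling to the median by up to 0.36. Ccrl2 in WT at 24 h lost its call with scaling to the median (adjusted p 0.0579, limma), and Cxcr4 in WT at 12 h with no filter (0.0627). Signal over background limits Ccr7 at 0 h, Ccr1 and Cx3cr1.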

Other observations

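Of the 12 tested neutrophil markers, Lcn2 alone was called at 6 h without the session as a term (6.35 in KO, 6.04 in WT, limma), joined by Csf3r at 12 h. Of all genes, 26% in KO and 25.4% in WT were called at 6 h, and 19.4% and 19.3% at 12 h. With the session as a term, 1 of the 12 was higher and 2 lower at 6 h in KO and 3 higher and 0 lower in WT. At 12 h, 3 were higher and 2 lower in KO, and 2 higher and 4 lower in WT. In that fit 43.7% of all genes in KO and 45.6% in WT were called at 6 h, and 38.3% and 37.6% at 12 h. Of the 9 tested monocyte markers, 2 were called at 6 h in each genotype, both higher, among them Ly6c2 (3.42 in KO, 3.59 in WT). Of all genes, 26% were called in KO and 25.4% in WT. F13a1 and Spn of the same list read lower at 6 h than at 0 h but were not called in that fit. F13a1 was -1.04 and -4.79 at 6 h in KO, against -0.27 and -0.11 at 0 h. In WT it was -1.05 and -5.65, against 0.04 and -0.81. With the session, 4 were higher and 1 lower in KO, and 4 higher and 2 lower in WT, beside 43.7% and 45.6% of all genes. Of the 4 tested T and NK cell and the 4 tested B cell markers, 0 were called against 0 h without the session, and an unadjusted limma p under 0.05 came from 2 of 24 tests and 7 of 24. With the session, 0 or 1 in each direction were called in each list and comparison. Of all genes, 9.9% to 26% were called against 0 h without the session and 24.1% to 45.6% with it. Of the 3 tested eosinophil, basophil and mast cell markers, 0 were called against 0 h in either fit, and 0 of 18 tests had an unadjusted limma p under 0.05 without the session. Ccl2, a ligand of Ccr2 picked here after its values were seen, was higher at rest in session 2 (7.5 in KO, 7.43 in WT) than in session 1 (3.14 in KO, 3.85 in WT), while Ccr2 was lower there.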
